A study of Mus musculus with 3 samples.

Results

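The immunoglobulin gene segments on these arrays are 29 of 35556 probe sets. They were chosen by name alone: every gene symbol that the platform annotation gives a member begins with Igh, Igk, Iglv, Iglc or Iglj, and Ighmbp2, an unrelated helicase gene, was left out. The 29 probe sets name 29 distinct genes of the heavy chain (10 probe sets, chromosome 12), the kappa light chain (17, chromosome 6) and the lambda light chain (2, chromosome 16), by the gene table of assembly GRCm38.p6. That table was used for names, gene types and the order of neighbours only, since neither labels nor files name the genome build of the probe annotation.

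The study set spleen dendritic cells (DCs) that lack RBPJ, the nuclear partner of Notch receptors, against DCs of control mice. RBPJ-null Esam(lo) cells came from RBPJflox/flox CD11c-Cre mice, in which Cre runs from the promoter of the CD11c gene, used by DCs and by some other leukocytes. Control Esam(hi) and control Esam(lo) cells came from littermates that carried the floxed alleles without Cre, and all mice carried GFP in the Cx3cr1 gene. Each group is 1 array of RNA from CD11c(hi) CD11b+ cells sorted from the combined spleens of 2 to 3 mice, after magnetic removal of lymphoid and erythroid cells. The control Esam(hi) cells were GFP(lo), and both Esam(lo) groups were GFP(hi). Ages are not given in the labels.

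An antibody is made of 2 kinds of chain, heavy and light. A B cell builds the variable end of each chain by joining V, D and J segments for the heavy chain, or V and J segments for kappa or lambda, and the joined end is spliced to a constant region (Ighm for IgM, Ighg3 for IgG3, Igha for IgA, Igkc for kappa, Iglc1 for lambda). B cells and antibody-secreting plasma cells transcribe these genes, and plasma cells do so at very high levels. CD11b+ DCs are myeloid cells that take up antigen, bind antibody through Fc receptors and are not known to make antibody.

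Values are log2 expression values normalized by RMA, 1 per probe set and array, so a difference of 1 is 2-fold. With 1 array a group there is no replicate error, no test could be made, and every statement compares arrays. A probe set was taken as above background where it exceeded the 95th percentile of 1205 probe sets of olfactory and vomeronasal receptor genes, which are silent in most tissues. That level was 6.86 on the array labelled RBPJ-null, 7.16 on the control Esam(hi) array and 6.75 on the control Esam(lo) array. Medians over all probe sets were 6.56, 6.67 and 6.55 in the same order, and 45.0%, 40.7% and 46.8% of all probe sets were above background. The targeted gene does not check the label: Rbpj (probe set 10521913) read 10.04 on the array labelled RBPJ-null, 9.85 on the control Esam(hi) array and 9.85 on the control Esam(lo) array. Another Rbpj probe set (10521911) was below background on each array, at 5.63, 6.11 and 5.63 in the same order. How many of the Rbpj probes lie in the deleted part is not known here. Esam read 6.12, 7.79 and 6.57 on these arrays, which follows the sort. Both Esam(lo) values are below background, so the distance between them was not read.

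Immunoglobulin signal was lowest on the array labelled RBPJ-null. Of the 29 probe sets, 24 had their lowest value there, with no tie, where 19.4% of all probe sets did. On the control Esam(hi) array 17 of 29 had their highest value, and these 17 all ran from control Esam(hi) through control Esam(lo) down to RBPJ-null, an order that 15.8% of all probe sets showed. None of the 29 was lowest on the control Esam(lo) array alone. Summed on the linear scale, the 29 values came to 7354.4 on the array labelled RBPJ-null, 33756.4 on the control Esam(hi) array and 13458.3 on the control Esam(lo) array. Over all probe sets the sums were 14566874.8, 12503730.8 and 14438645.4 in the same order. A linear sum is weighted towards the brightest probe sets. On the control Esam(hi) array 10538871, 10403021, 10403018 and 10403015 read 12.78, 12.51, 12.19 and 11.16. The medians of the 29 were 7.46 on the array labelled RBPJ-null, 8.73 on the control Esam(hi) array and 8.78 on the control Esam(lo) array. Above background were 19 of 29 on the array labelled RBPJ-null, 23 on the control Esam(hi) array and 24 on the control Esam(lo) array. Of the members, 5 were above background on no array: Ighg3 (10403046), Ighv3-6 with Igha (10403009), Igkv4-91, Igkv8-30 and Igkv6-20. Another 4 were above background on both control arrays and not on the array labelled RBPJ-null, and Igkv4-55 was so on the control Esam(lo) array alone. In sorted bulk samples, fewer cells of a type and less RNA per cell cannot be told apart.

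**Figure D1:**
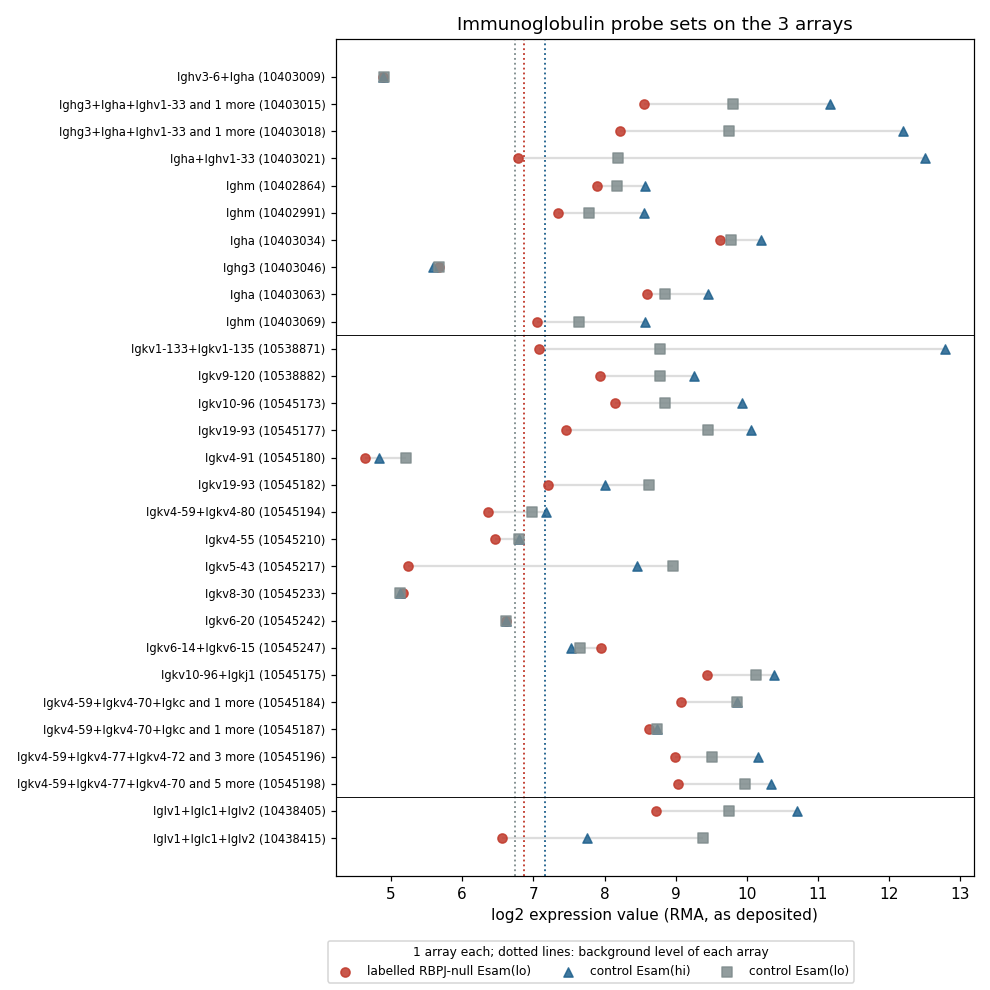
Log2 expression value (horizontal axis) of each of the 29 immunoglobulin probe sets (rows; heavy chain at the top, kappa in the middle, lambda at the bottom) on the array labelled RBPJ-null Esam(lo), the control Esam(hi) array and the control Esam(lo) array, 1 point each, with dotted lines at each array's background level. The RBPJ-null point lies farthest left in 24 rows, and 3 rows (10403018, 10403021 and 10538871) stretch to over 12 on the control Esam(hi) array.

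The probe sets are not independent readings of single segments. The annotation gives 15 of them 1 symbol and 14 several, and it ties each to between 1 and 20 sequence records. Joined wherever they share a record, the 29 form 18 clusters, the largest with 7 probe sets of the Igkv4 family, Igkv19-93 and Igkc. Joined by shared symbols they form 13 clusters. A symbol below is therefore the annotation's name for a probe set, and signal from a related segment cannot be told apart from it. The V segments named are few of those in the gene table: 3 of 183 for the heavy chain, 18 of 162 for kappa and 2 of 3 for lambda. Of these, Ighv1-33 and Igkv4-77 are listed as pseudogenes.

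The first comparison sets the array labelled RBPJ-null against the control Esam(lo) array, 2 arrays of cells of the same sorted phenotype. Immunoglobulin probe sets were lower on the array labelled RBPJ-null: 25 of 29 had lower values, 2 had higher values and 2 were tied, with a median difference of -0.61. Over all probe sets 31.6% were lower, 27.6% were higher and the median was 0. By a rule of size (deposited values at least 2-fold apart, brighter array above background), 9 of 29 were lower and 0 higher. The same number was 2-fold lower when values below background were set to the background level. Among the 16559 probe sets with the brighter array above background, 0.290% were 2-fold lower and 0.713% were 2-fold higher. The 9 members are 31.0% of the immunoglobulin probe sets and 18.8% of the 48 probe sets in the whole table that were 2-fold lower. Scaling moved the whole-table counts, which were 118 higher and 48 lower as deposited, 67 and 50 with arrays centred on their medians, and 54 and 44 with quantile normalization. The same 9 members were 2-fold lower under each of these and with the trend of the difference on level removed.

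Kappa V segments and 1 lambda probe set lay farthest apart in this pair. Igkv5-43 (10545217) read 5.24 on the array labelled RBPJ-null, below background, against 8.97 on the control Esam(lo) array. It was at least 4.30-fold lower, a bound because the dimmer value is not above background. Igkv19-93 (10545177) read 7.46 on the array labelled RBPJ-null and 9.45 on the control Esam(lo) array, 3.98-fold lower, the lowest difference among the 15766 probe sets above background on both arrays. A second Igkv19-93 probe set (10545182) read 7.21 on the array labelled RBPJ-null and 8.62 on the control Esam(lo) array, 2.66-fold lower. Both probe sets annotated with Igkv19-93 alone were thus over 2-fold lower on the array labelled RBPJ-null, and another, which carries Igkc and other V symbols as well (10545198), was 1.92-fold lower. The probe set of Igkv1-133 and Igkv1-135 (10538871) read 7.07 on the array labelled RBPJ-null, just above background, against 8.78 on the control Esam(lo) array, 3.26-fold lower. These last V segments lie at positions 6 and 3 of the 162 in the kappa locus, counted along the chromosome, and Igkv5-43 at position 117.

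Both lambda probe sets, annotated with Iglv1, Iglv2 and the constant region Iglc1, were also lower. One (10438415) read 6.56 on the array labelled RBPJ-null, below background, and 9.38 on the control Esam(lo) array, at least 5.74-fold lower. The other (10438405) read 8.72 on the array labelled RBPJ-null and 9.74 on the control Esam(lo) array, 2.04-fold lower.

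Among heavy chain probe sets, 3 of the 4 annotated with both a V segment and a constant region were 2-fold lower, and the other was below background throughout (10403009, at 4.89 on the array labelled RBPJ-null and 4.90 on the control Esam(lo) array). Probe set 10403018 (Ighg3, Igha, Ighv1-33, Ighv1-26) read 8.21 on the array labelled RBPJ-null and 9.75 on the control Esam(lo) array, 2.90-fold lower. A second probe set with the same symbols (10403015) read 8.56 on the array labelled RBPJ-null and 9.81 on the control Esam(lo) array, 2.38-fold lower. Probe set 10403021 (Igha, Ighv1-33) read 6.78 on the array labelled RBPJ-null, below background, and 8.19 on the control Esam(lo) array, at least 2.51-fold lower. The 6 probe sets annotated with a heavy constant region alone differed less, by 0 to -0.58 with a median of -0.27. None of these 6 was 2-fold apart.

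The 3 probe sets annotated with Ighm alone, the constant region of IgM, show the size of those smaller differences. One (10403069) read 7.06 on the array labelled RBPJ-null and 7.64 on the control Esam(lo) array. Another (10402991) read 7.35 on the array labelled RBPJ-null and 7.78 on the control Esam(lo) array, and the remaining one (10402864) read 7.89 and 8.17 on the same arrays. The 2 Igha probe sets read 9.63 (10403034) and 8.59 (10403063) on the array labelled RBPJ-null, and 9.78 and 8.85 on the control Esam(lo) array. All 5 of these values were lower on the array labelled RBPJ-null, and none by 2-fold.

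Kappa probe sets that carry Igkc, the constant region of all kappa chains, were lower by 0.11 to 0.94 on the log2 scale, and none of the 4 was 2-fold apart. The one with the most symbols (10545198, with Igkc, Igkv19-93 and 6 Igkv4 segments) read 9.03 on the array labelled RBPJ-null and 9.97 on the control Esam(lo) array. A further Igkc probe set (10545196) read 8.99 on the array labelled RBPJ-null and 9.51 on the control Esam(lo) array. Another (10545184) read 9.08 and 9.86 on the same arrays, and the last (10545187) read 8.63 and 8.73. Other kappa V probe sets were lower by less than 2-fold. Igkv9-120 (10538882) read 7.94 on the array labelled RBPJ-null and 8.78 on the control Esam(lo) array, and Igkv10-96 (10545173) read 8.14 and 8.85 on these arrays. Igkv10-96 with Igkj1 (10545175) read 9.44 on the array labelled RBPJ-null and 10.13 on the control Esam(lo) array. Near background, Igkv4-59 with Igkv4-80 (10545194) read 6.37 on the array labelled RBPJ-null, 7.18 on the control Esam(hi) array and 6.98 on the control Esam(lo) array, and Igkv4-55 read 6.47, 6.79 and 6.79 in that order. The only member above background with a higher value on the array labelled RBPJ-null was that of Igkv6-14 and Igkv6-15 (10545247), at 7.95 against 7.66 on the control Esam(lo) array.

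A further comparison sets the array labelled RBPJ-null beside the control Esam(hi) array. The distance was wider here: 24 of 29 immunoglobulin probe sets had lower values on the array labelled RBPJ-null, 3 had higher values and 2 were tied, with a median difference of -0.93. Over all probe sets 44.1% were lower, 38.0% were higher and the median was 0. By deposited values, 14 of 29 members were at least 2-fold lower and 0 were higher, where 5.18% of the 16443 probe sets with the brighter array above background were lower and 12.7% were higher. The 14 are 48.3% of the immunoglobulin probe sets and 1.65% of the 851 lower probe sets. The whole-table counts depended on scaling, with 2085 higher and 851 lower as deposited, 2658 and 648 with median centring, 1418 and 1394 with quantile normalization, and 1344 and 1352 with the level trend removed. The same 14 members were 2-fold lower under all of these, and 3 more were with quantile normalization and with the level trend removed, 17 in each. With values below background set to the background level the count was 13, since the lambda probe set 10438415 was then short of 2-fold. Centring on medians moves every difference between these 2 arrays by 0.11.

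Immunoglobulin probe sets were among those farthest apart in the whole table. Probe set 10403021 (Igha, Ighv1-33) read 6.78 on the array labelled RBPJ-null, below background, and 12.51 on the control Esam(hi) array, at least 50.0-fold lower. Igkv1-133 with Igkv1-135 (10538871) read 7.07 on the array labelled RBPJ-null and 12.78 on the control Esam(hi) array, 52.1-fold lower. Of the 13860 probe sets above background on both arrays, Igkv1-133 with Igkv1-135 had the lowest difference. Probe set 10403018 (Ighg3, Igha, Ighv1-33, Ighv1-26), at rank 2 among these, read 8.21 on the array labelled RBPJ-null and 12.19 on the control Esam(hi) array, 15.8-fold lower, and 10403015 with the same symbols read 8.56 and 11.16 on these arrays, 6.10-fold lower.

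Other V segments followed at smaller size. Igkv5-43 read 5.24 on the array labelled RBPJ-null, below background, and 8.45 on the control Esam(hi) array, at least 3.01-fold lower. Igkv19-93 (10545177) read 7.46 on the array labelled RBPJ-null and 10.05 on the control Esam(hi) array, 6.03-fold lower, while its second probe set (10545182) read 7.21 and 8.01 on these arrays, 1.75-fold lower and short of the rule. Igkv10-96 (10545173) read 8.14 on the array labelled RBPJ-null and 9.93 on the control Esam(hi) array, 3.44-fold lower. Its second probe set, annotated with the joining segment Igkj1 as well (10545175), read 9.44 and 10.37 on these arrays, 1.91-fold lower. Igkv9-120 (10538882) read 7.94 on the array labelled RBPJ-null and 9.26 on the control Esam(hi) array, 2.50-fold lower.

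Constant region probe sets above background were lower here too, apart from 1 of Igkc whose sign turned with scaling. Ighm was 2.87-fold lower by one probe set (10403069; 7.06 on the array labelled RBPJ-null and 8.58 on the control Esam(hi) array) and 2.29-fold lower by another (10402991; 7.35 and 8.55). The third Ighm probe set (10402864) read 7.89 on the array labelled RBPJ-null and 8.57 on the control Esam(hi) array, 1.59-fold lower. Igha was 1.49-fold (10403034) and 1.82-fold (10403063) lower, at 9.63 and 8.59 on the array labelled RBPJ-null and 10.21 and 9.45 on the control Esam(hi) array. Of the 4 Igkc probe sets, 2 were past 2-fold, at 2.46-fold (10545198) and 2.25-fold (10545196) lower. Igkc probe set 10545184 was 1.72-fold lower, and 10545187, which differed by -0.11, turned to 0.0018 with median centring. The lambda probe sets were 3.97-fold lower (10438405; 8.72 on the array labelled RBPJ-null and 10.71 on the control Esam(hi) array) and at least 1.86-fold lower (10438415; 6.56, below background, and 7.76).

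**Figure D2:**
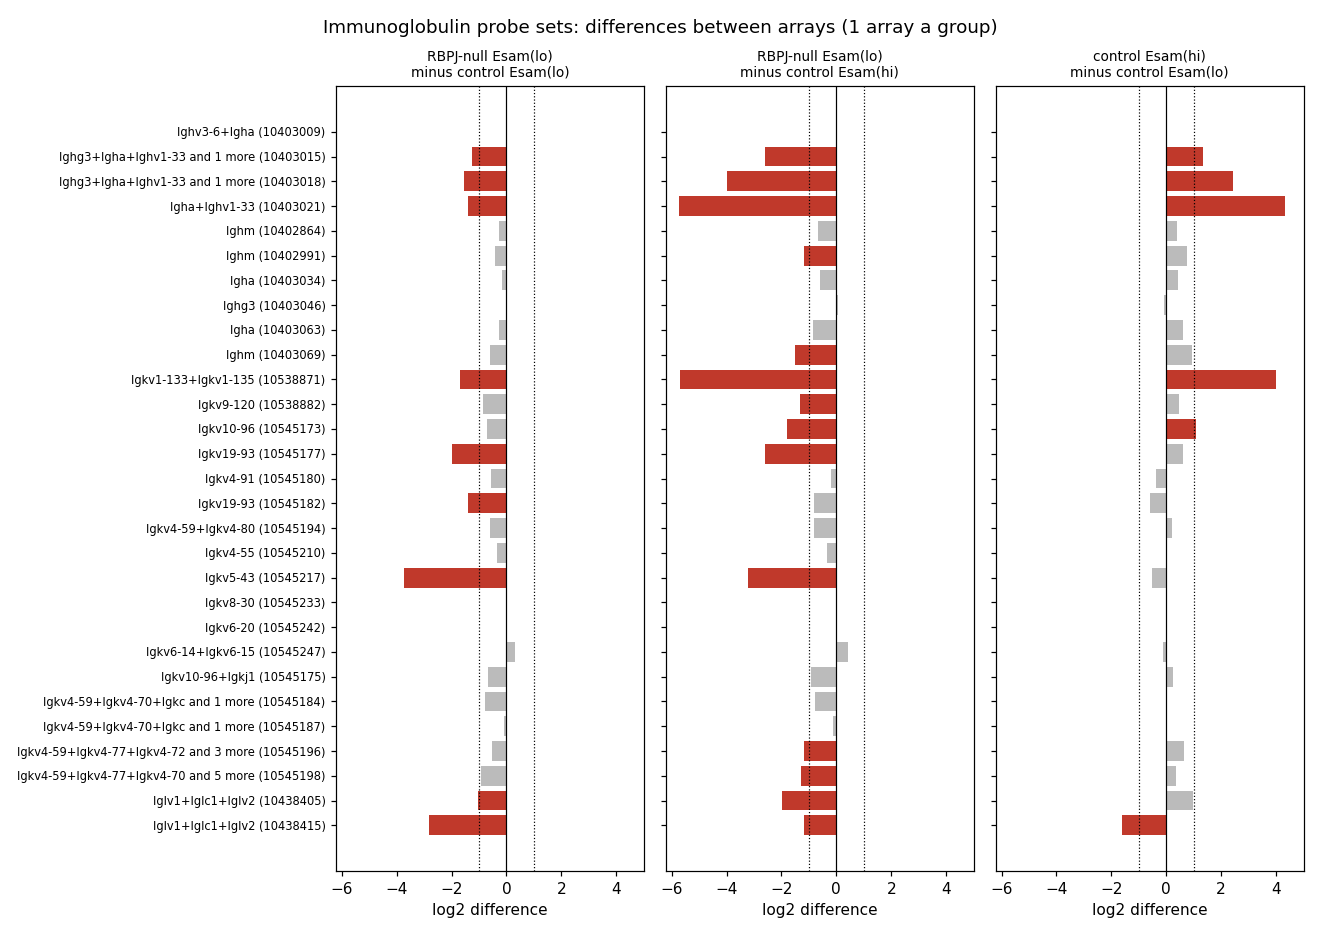
Log2 difference of each of the 29 immunoglobulin probe sets (rows) for RBPJ-null Esam(lo) minus control Esam(lo), RBPJ-null Esam(lo) minus control Esam(hi) and control Esam(hi) minus control Esam(lo), left to right, with dotted lines at 2-fold. Red bars mark members at least 2-fold apart with the brighter array above background: 9 lower, 14 lower, and 5 higher with 1 lower.

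The third comparison sets the control Esam(hi) array against the control Esam(lo) array. Most immunoglobulin differences were modest, and a few were among the largest measured. On the control Esam(hi) array 17 of 29 had higher values, 7 had lower values and 5 were tied, with a median difference of 0.36. Over all probe sets 43.7% were higher, 38.1% were lower and the median was 0. At least 2-fold higher were 5 of 29 and lower 1 of 29, where 5.51% of the 16279 probe sets with the brighter array above background were higher and 11.0% lower. With the level trend removed 8 members were 2-fold higher, and the whole-table counts, 897 higher and 1796 lower as deposited, became 1311 and 1105 (714 and 2391 with median centring, 1295 and 1230 with quantile normalization).

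The 2 probe sets with the highest differences of the whole table were both members. Probe set 10403021 (Igha, Ighv1-33) read 12.51 on the control Esam(hi) array and 8.19 on the control Esam(lo) array, 20.0-fold higher. Igkv1-133 with Igkv1-135 read 12.78 on the control Esam(hi) array and 8.78 on the control Esam(lo) array, 16.0-fold higher. Probe sets 10403018 and 10403015 (Ighg3, Igha, Ighv1-33, Ighv1-26) were 5.44-fold and 2.56-fold higher, at 12.19 and 11.16 on the control Esam(hi) array and 9.75 and 9.81 on the control Esam(lo) array. Igkv10-96 (10545173) was 2.11-fold higher, at 9.93 on the control Esam(hi) array and 8.85 on the control Esam(lo) array, and its difference was 0.96 with median centring, short of 2-fold.

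Probe sets of 1 annotation did not all point the same way. Of the 2 lambda probe sets, 10438405 read 10.71 on the control Esam(hi) array and 9.74 on the control Esam(lo) array, while 10438415 read 7.76 and 9.38, 3.08-fold lower on the control Esam(hi) array. Igkv19-93 split likewise, at 10.05 on the control Esam(hi) array and 9.45 on the control Esam(lo) array by one probe set (10545177) and 8.01 and 8.62 by the other (10545182). Igkv5-43 had a lower value on the control Esam(hi) array as well, at 8.45 against 8.97 on the control Esam(lo) array. The 2 probe sets that share Igkv4-59, Igkv4-70, Igkc and Igkv4-80 were tied between the control arrays, at 9.86 (10545184) and 8.73 (10545187).

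By chain, the heavy probe sets had a median difference of 0.69 between the control arrays, with 8 of 10 higher on the control Esam(hi) array, and the kappa probe sets a median of 0, with 8 of 17 higher, 4 lower and 5 tied. The kappa median was -0.11 with median centring and 0.33 with the level trend removed, so its sign was not stable. The 6 heavy constant region probe sets lay between -0.07 and 0.94, and none was 2-fold apart. The 1205 olfactory and vomeronasal probe sets were also shifted towards the control Esam(hi) array, with 702 higher, 57 lower and a median of 0.04. Their part in these differences was not tested.

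T cell receptor segments, the counterpart family that T cells rearrange, were set beside the immunoglobulin ones. Their 52 probe sets hold 41 distinct sets of values. Of the 52, 28 were above background on no array, against 5 of the 29 immunoglobulin probe sets, so the families differ in brightness. Between the array labelled RBPJ-null and the control Esam(lo) array, 30 of the 52 were exactly equal. Their median was 0 and none was 2-fold apart. The brighter array was above background for 21 of the 52, and over all such probe sets 0.290% were 2-fold lower and 0.713% higher. Of the 29 immunoglobulin probe sets, 2 were equal and 9 were 2-fold lower. Over all 35556 probe sets, 14517 were tied in this pair. Against the control Esam(hi) array, 11 of the 52 were 2-fold lower on the array labelled RBPJ-null, with a median of -0.50 and no difference beyond -1.43. The brighter array was above background for 23 of the 52, and over all such probe sets 5.18% were 2-fold lower. On the control Esam(hi) array 12 of the 52 were 2-fold higher than on the control Esam(lo) array, with a median of 0.51 and a highest difference of 1.26. Here too 23 of the 52 had the brighter array above background, and over all such probe sets 5.51% were 2-fold higher. Of the 16 T cell markers measured (Cd3e, Cd5 and others), 5 were above background on the array labelled RBPJ-null, 5 on the control Esam(hi) array and 6 on the control Esam(lo) array, and none was 2-fold apart in any comparison. With 1 array a group no difference between the families was tested.

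**Figure D3:**
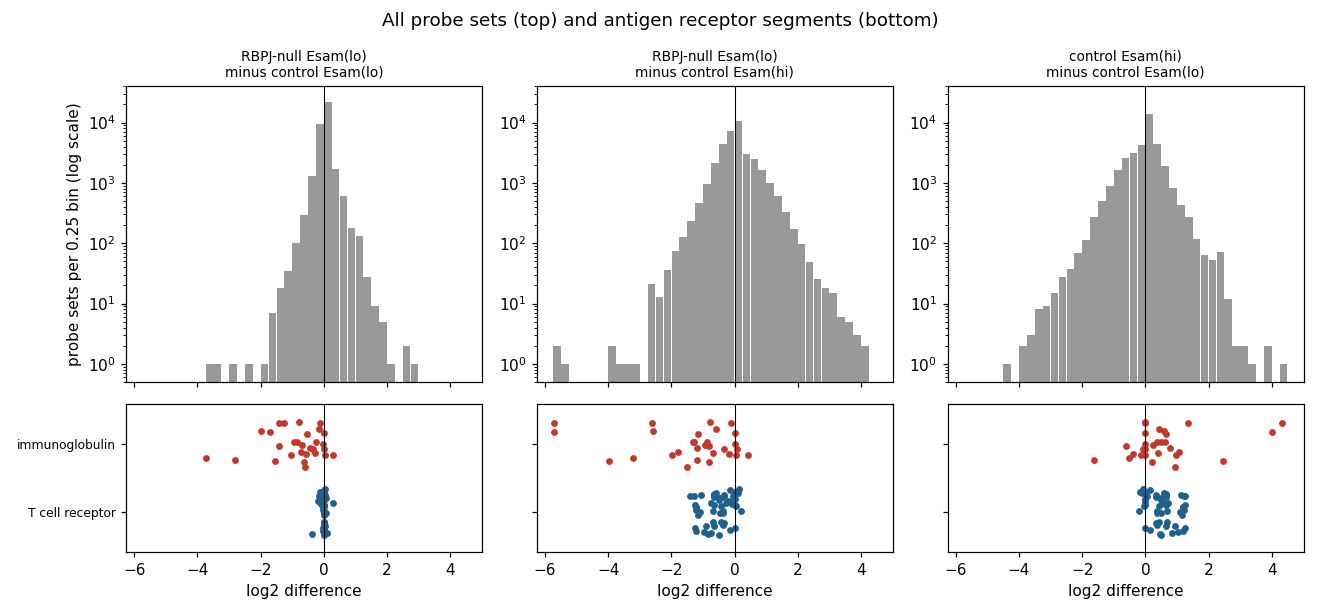
Top, number of probe sets (log scale) by log2 difference in bins of 0.25 over all 35556 probe sets, for RBPJ-null Esam(lo) minus control Esam(lo), RBPJ-null Esam(lo) minus control Esam(hi) and control Esam(hi) minus control Esam(lo). Bottom, the 29 immunoglobulin (red) and 52 T cell receptor (blue) probe sets on the same axis, spread vertically for visibility: on the left the T cell receptor points gather at 0 while 9 immunoglobulin points lie at or below -1.

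Marker genes of B cells and plasma cells, and genes of antibody secretion, were read beside these values. Jchain, the joining chain of secreted IgM and IgA, read 8.68 on the array labelled RBPJ-null, 10.70 on the control Esam(hi) array and 9.68 on the control Esam(lo) array. The array labelled RBPJ-null was thus 4.06-fold lower than the control Esam(hi) array and 2.00-fold lower than the control Esam(lo) array. The last difference was -0.99 with quantile normalization, short of 2-fold. The control Esam(hi) array was 2.03-fold higher than the control Esam(lo) array, a difference of 0.91 with median centring. Among 22 genes of plasma cells and antibody secretion measured, Jchain was the only one 2-fold lower on the array labelled RBPJ-null in either comparison.

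Some plasma cell markers of that list were dim and others were not. Prdm1, a regulator of plasma cell development that DCs also use, read 8.22 on the array labelled RBPJ-null, 7.99 on the control Esam(hi) array and 8.37 on the control Esam(lo) array. Mzb1 and Tnfrsf17 (the BCMA receptor), which mark plasma cells, and Sdc1, their surface marker CD138, were below background on all 3 arrays. Mzb1 read 6.02 on the array labelled RBPJ-null, 6.89 on the control Esam(hi) array and 6.33 on the control Esam(lo) array. Of the chaperone and secretion genes, which every secreting cell uses, Ssr4 was 3.11-fold, Sdf2l1 2.56-fold, Hsp90b1 2.08-fold and Pdia6 2.03-fold higher on the array labelled RBPJ-null than on the control Esam(hi) array. With the level trend removed these 4 differences were 1.25, 0.97, 0.64 and 0.69, so 3 of them were short of 2-fold. Of the 22 genes of the list, 17 were above background on each array. Over all probe sets with the brighter array above background, 12.7% were 2-fold higher by deposited values in this comparison. The list's values summed on the linear scale were 19419.0 on the array labelled RBPJ-null, 15099.6 on the control Esam(hi) array and 18693.0 on the control Esam(lo) array. The genes of this list with the highest mean values were Hspa5, Slamf7, Edem1 and Hsp90b1.

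Of 23 B cell markers measured, 9 were above background on the array labelled RBPJ-null, 11 on the control Esam(hi) array and 10 on the control Esam(lo) array. The defining markers Ms4a1 (CD20), Cd79a, Pax5 and Ebf1 were below background on all 3 arrays. Cd79a, a signalling subunit of the B cell receptor, read 4.70 on the array labelled RBPJ-null, 5.15 on the control Esam(hi) array and 4.70 on the control Esam(lo) array. Cd79b, its partner, was 2.12-fold higher on the array labelled RBPJ-null (9.29) than on the control Esam(hi) array (8.20), and that difference was 0.74 with the level trend removed. Spib, a transcription factor of B cells and plasmacytoid DCs, was 3.28-fold higher on the array labelled RBPJ-null (9.80) than on the control Esam(hi) array (8.09). Over all probe sets with the brighter array above background, 12.7% were 2-fold higher in this comparison. Against the control Esam(lo) array, 13 of the 23 had higher values on the control Esam(hi) array and 7 had lower values. Over all probe sets 43.7% were higher and 38.1% lower. Some dimmer B cell genes thus had their highest value on the control Esam(hi) array, and others had their lowest there. Bank1, an adaptor of B cell receptor signalling, read 7.10 on the array labelled RBPJ-null, 7.89 on the control Esam(hi) array and 7.53 on the control Esam(lo) array. Pou2af1, a coactivator of immunoglobulin transcription, read 6.85 on the array labelled RBPJ-null, just below background, 7.49 on the control Esam(hi) array and 7.08 on the control Esam(lo) array. Blk, a kinase of B cells, was above background on the control Esam(hi) array alone, at 6.60, 7.59 and 6.60 in the same order. No B cell marker was 2-fold lower on the array labelled RBPJ-null as deposited. With the level trend removed Cd22, an inhibitory lectin of B cells, was so against the control Esam(hi) array (-1.05), and Blk was with quantile normalization (-1.03). Cd22 read 9.73 on the array labelled RBPJ-null, 10.37 on the control Esam(hi) array and 10.10 on the control Esam(lo) array. The summed linear values of the list were 7279.6 on the array labelled RBPJ-null, 6467.1 on the control Esam(hi) array and 7219.5 on the control Esam(lo) array. Such a sum is weighted towards the brightest genes of the list, by mean over the arrays Bcl11a, Cd22 and Cd72. Bcl11a read 10.25 on the array labelled RBPJ-null, 10.18 on the control Esam(hi) array and 10.48 on the control Esam(lo) array. Cd72 read 10.36, 9.85 and 9.75 in the same order. The part of other cells in the immunoglobulin values was not tested.

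**Figure D4:**
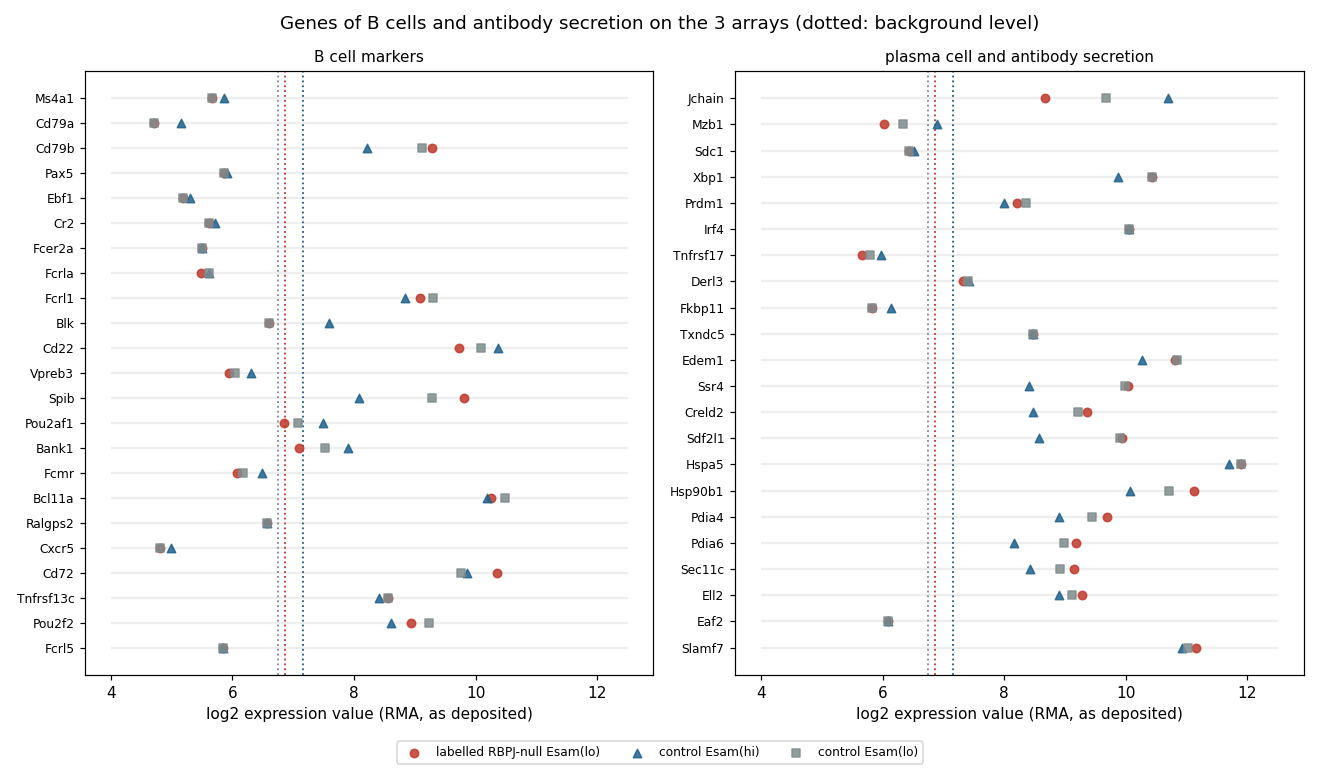
Log2 expression values (horizontal axis) of 23 B cell markers (left) and 22 genes of plasma cells and antibody secretion (right) on the array labelled RBPJ-null Esam(lo), the control Esam(hi) array and the control Esam(lo) array, with dotted lines at each array's background level. Jchain spreads from 8.68 to 10.70, while Ms4a1, Cd79a, Pax5 and Ebf1 lie left of all background lines.

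Genes that rearrange and edit antibody genes showed no 2-fold difference. Of 17 genes for the surrogate light chain, recombination and class switching, 7 were above background on the array labelled RBPJ-null, 5 on the control Esam(hi) array and 8 on the control Esam(lo) array, with none 2-fold apart in any comparison. In all, 8 were above background on at least 1 array. Over all probe sets with the brighter array above background, 2-fold shares ran from 0.290% to 12.7% by comparison and direction. With so few genes above background, the lack of a 2-fold difference says little. Rag1 and Rag2, the recombinase, and Dntt, which adds bases at the joints, were below background on all 3 arrays. The surrogate light chain gene Vpreb2 read 6.68 on the array labelled RBPJ-null, 7.51 on the control Esam(hi) array and 6.88 on the control Esam(lo) array. Of 17 B cell receptor signalling genes, many of which myeloid cells share, 16 were above background on each array and Cd81 alone was 2-fold apart, 2.23-fold higher on the array labelled RBPJ-null than on the control Esam(hi) array. In that comparison 12.7% of all probe sets with the brighter array above background were 2-fold higher. With the level trend removed Cd81 was short of 2-fold (0.75).

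Some receptors that bind antibody were higher on both Esam(lo) arrays than on the control Esam(hi) array. Of 15 Fc receptor and antibody transport genes measured, 7 were above background on at least 1 array. By deposited values, 4 were 2-fold higher on the array labelled RBPJ-null than on the control Esam(hi) array, and none was lower. Among all probe sets with the brighter array above background, the share 2-fold higher was 12.7%. The control Esam(hi) array was 2-fold lower for the same 4 when set against control Esam(lo). With values below background set to the background level 3 of the 4 were 2-fold apart in each comparison, and Fcgr3 was not. Against the control Esam(hi) array, the array labelled RBPJ-null was higher for Fcgr2b, the inhibitory IgG receptor (7.31-fold), and for Fcgr3 (at least 1.77-fold). It was also higher for Fcgr4 (at least 2.43-fold) and for Fcer1g (2.71-fold), the signalling chain of Fcgr3 and Fcgr4. None of the 15 was 2-fold apart between the array labelled RBPJ-null and the control Esam(lo) array, where Fcgr2b read 10.07 and 10.12. Markers of plasmacytoid DCs and red cells were read for other cells that spleen could contribute. The plasmacytoid list had 4 of 15 genes 2-fold higher on the array labelled RBPJ-null than on the control Esam(hi) array (Tcf4, Spib, Rnase6 and Cybb), of which Tcf4 (0.91) and Rnase6 (0.80) were short of 2-fold with the level trend removed, and its defining marker Siglech was below background on all 3 arrays. Of 10 red cell genes measured, 1 was above background on the array labelled RBPJ-null, 4 on the control Esam(hi) array and 3 on the control Esam(lo) array. Among them 1, Car1, was 2-fold lower by deposited values on the array labelled RBPJ-null, at 6.71, below background, against 7.86 on the control Esam(hi) array and 7.83 on the control Esam(lo) array. With that dim value set to the background level it was short of 2-fold in both comparisons, at least 1.95-fold lower than on the control Esam(lo) array.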

How the data were processed

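The deposited values are log2 expression values of 3 Affymetrix Mouse Gene 1.0 ST arrays, made by the authors with RMA and Affymetrix Expression Console, per the submitters' processing notes. The labels do not say which arrays were normalized together, and give no software version. Exact ties between arrays are frequent, in 45.6% of probe sets and 7 of the 29 members, and a tie was not read as equal RNA. No replicate exists, so the number of arrays limits the precision. Symbols came from the platform annotation (21789 probe sets with 1 gene, 1621 with several, 12146 with none). All 29 Entrez numbers of the members were found in the gene table.

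Differences were computed with Python 3.11.15, pandas 2.3.3 and statsmodels 0.14.6, and the counting was tested on simulated data. If the dimmer of a pair of values was below background, the fold is a lower bound ("at least") against that array's background level. The level trend is a loess curve of the difference on the mean of both arrays (span 0.3). A listed gene was read from its probe set with the highest mean over the arrays, among probe sets with 1 gene. The members, the 8 gene lists and the alternatives were chosen with earlier results of these data known. Genes were named by a rule: all constant region probe sets, up to 8 members farthest apart per comparison and direction, the 5 members with the highest mean in heavy V, kappa V and lambda, and, from each list, 2-fold genes and the 4 with the highest mean. Of the lists, 4-gene names are given for plasma cells only, and genes named because they define a cell type, as well as Bank1, Blk, Pou2af1, Prdm1 and Vpreb2, fall outside the rule.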

Additional observations from a re-analysis of the deposited data

How the results depend on the processing

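With 1 array a group, no replicate could be left out, and no paired analysis was possible because the groups share no replicates beyond a single array each. No median or count over the 29 members changed direction under an alternative, but the Igkc probe set 10545187 (-0.11 for the array labelled RBPJ-null against control Esam(hi)) was 0.0018 with median centring, and the kappa median between the control arrays took either sign by scaling. The number of members 2-fold lower on the array labelled RBPJ-null than on the control Esam(lo) array, 9 of 29, was 15 at a 1.5-fold and 4 at a 3-fold threshold, 3 of the 15 probe sets with 1 symbol, and 4 of 13 when probe sets with shared symbols were counted once. Against the control Esam(hi) array, 14 of 29 became 8 at 3-fold, 6 of 15 with 1 symbol and 6 of 13 with shared symbols counted once. On the control Esam(hi) array against the control Esam(lo) array, the 5 higher members became 8 with the level trend removed, 11 at 1.5-fold, 3 at 3-fold, 1 of 15 with 1 symbol and 2 of 13 counted once. The 1 lower member became 2 at 1.5-fold and 0 in both of the smaller sets, and the median of 0.36 became 0.63 with quantile normalization and 0.66 with the level trend removed. Members above background were 9 on the array labelled RBPJ-null, 10 on the control Esam(hi) array and 11 on the control Esam(lo) array among those with 1 symbol, and 8, 9 and 10 with shared symbols counted once. These smaller sets hold fewer probe sets by construction. On the array labelled RBPJ-null 19 of 29 became 9 above the array's 75th percentile and 29 with no filter. Above the same percentile of their own arrays, 23 became 19 on the control Esam(hi) array and 24 became 17 on the control Esam(lo) array. Adding the 2 probe sets with mixed symbols, chosen after seeing the data, moved no count of members by over 1.5 times. Nor did setting values below background to the background level, also chosen after seeing the data: 9, 13, 5 and 1 members were then 2-fold apart in place of 9, 14, 5 and 1. Over all probe sets, 31 in place of 48 were then 2-fold lower on the array labelled RBPJ-null against control Esam(lo).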

Other observations

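A pair of probe sets lie just outside the membership rule, because the annotation gives them the kinase gene Map3k20 beside Igkv9-120, Igk-V21 and Igkv1-117. Probe set 10538880 read 6.40 on the array labelled RBPJ-null, below background, 11.66 on the control Esam(hi) array and 7.70 on the control Esam(lo) array. Its fold is at least 27.9 (lower) for the array labelled RBPJ-null against control Esam(hi), and 15.6 (higher) for control Esam(hi) against control Esam(lo). Probe set 10538921 read 9.10 on the array labelled RBPJ-null, 12.39 on the control Esam(hi) array and 9.99 on the control Esam(lo) array. Its values on the array labelled RBPJ-null were 9.79-fold lower than on the control Esam(hi) array and 1.86-fold lower than on the control Esam(lo) array.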
